A study of Mus musculus with 1002 samples.

Results

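The wells described here came from the utricle of the mouse, an otolith organ that senses tilt, and were placed by their RNA on the Mmp2 and Aldh1a1 side of the transitional epithelium, the band of non-sensory cells around the sensory patch. Each well held a single cell sorted by FACS and profiled with Smart-seq2, a full-length cDNA method. Members were chosen by measured values, as wells that met 4 limits on CPM, the reads on a gene scaled to the reads of the well. At most 1 of 6 hair cell genes (Pou4f3, Myo15, Otof, Ptprq, Espn, Cib2) and at most 2 of 5 supporting cell genes (Sparcl1, Igfbp3, Dkk3, Gjb6, Slc1a3) reached 10 CPM. Cnmd reached 20 CPM, and the mean log2(CPM + 1) of Aldh1a1, Mmp2, Cpxm2 and Mia lay above that of Abca13, Zpld1, Sbspon and Sod3. Of the 861 wells that the labels call passed, 21.1% met the rule: 75 from P6 and 28 from P4 wildtype mice, 31 from P4 Atoh1-EGFP, 20 from P4 and 14 from P6 Pou4f3-DTR mice, and 14 from P2 mice. The rule sorted the rest into 40 other Cnmd-positive wells, in which the last limit failed, 72 Cnmd-negative non-hair wells, 200 supporting cell wells and hair cell wells (42.6% of the passed).

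All mice were a mix of C57BL/6 and FVB, at postnatal day 2, 4 or 6 (P2, P4, P6), in 6 groups of age and genotype. The P2 mice carried both Atoh1-EGFP and Pou4f3-DTR. Atoh1-EGFP is a green fluorescent reporter of Atoh1, the transcription factor that starts hair cell differentiation. Pou4f3-DTR places a diphtheria toxin receptor under Pou4f3, a hair cell factor, so that toxin can kill hair cells. The labels name no toxin, no animal and no sorting gate, so each group counted as 1 sample, wells were not replicates, and no test between groups was made. Reverse transcription used the enzyme maxima for P4 and P6 wildtype and P6 Pou4f3-DTR, smartscribe for the other P4 groups, and both for P2. Sequencing pool 3 held the P2 wells and the P4 wells of both transgenic lines. P4 wildtype was pool 7, P6 wildtype pools 1, 4, 5 and 6, and P6 Pou4f3-DTR pools 1 and 2.

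Member wells held 117563 to 1317136 reads on genes (median 544794) and 1148 to 6627 detected genes. The mitochondrially encoded share was 0.729% to 9.66%. Because every marker given for this cell type is part of the rule, the label could be checked only through markers of other cells. In P6 wildtype the 12 supporting cell markers, 5 of which the rule limits, summed to 2388 CPM in members (0 to 14816 over wells) and 22264 CPM in supporting cell wells (3506 to 53180), so the ranges overlapped. The 8 roof and dark cell markers summed to 2395 CPM in members, 4441 in the other Cnmd-positive, 2132 in the Cnmd-negative and 809 CPM in the supporting cell wells. Vmo1, Kcne1, Dct and Esrrb were at 0 in these members, but also in the other Cnmd-positive and Cnmd-negative wells. In the supporting cell wells all of them but Vmo1 were at 0. Kcne1 and Esrrb were read in P4 Atoh1-EGFP and P4 Pou4f3-DTR members. Across all members, 21 wells had any read on 10 mesenchyme markers, 13 on melanocyte markers, 11 on endothelium and pericyte markers, 9 on neuron markers, and 6 each on immune and erythroid markers. Of the mesenchyme markers Col1a1, Pou3f4, Lum and Postn were at 0 in every member, and the other 6 were read. Their sum reached 1000 CPM in 2 members, a P2 well at 56350 CPM and a P6 wildtype well at 3839 CPM, which are part of the values below. Glial markers were at 0 in 37 members and summed to at most 1064 CPM in the others, with Foxd3 at 0 throughout. The part of glial reads in the results was not tested. In P6 wildtype members the 18 hair cell markers, 6 of which the rule limits, summed to between 0 and 887 CPM per well. In hair cell wells they summed to 435 to 23772 CPM, a contrast that the rule largely fixes. Pou4f3, Myo15 and Espn (rule genes), Myo7a, Gfi1, Atoh1, Calb2, Pvalb, Slc17a8 and Lhx3 were at 0 in these members. The rest of the 18 were read, and 2 of them reached 10 CPM over the set.

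The sensory patch of the utricle holds hair cells and supporting cells, and the transitional epithelium forms its border with the non-sensory roof. Retinoic acid is made from vitamin A in a pair of oxidation steps, the second by the ALDH1A enzymes, and acts through nuclear receptors that include RARB. It patterns the utricle, where making and breaking it down in neighbouring zones sets up the striola, the central stripe. Dark and roof cells of the same epithelium exchange ions with the potassium-rich endolymph. Pendrin, the product of Slc26a4, is an anion exchanger whose loss enlarges the vestibular labyrinth and causes deafness.

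The values that chose the members are given as a description. Cnmd, which encodes the cartilage glycoprotein chondromodulin, ranged over the P6 wildtype members from 22.1 through a median of 1192 to 15229 CPM, and summed to 2485 CPM. In the 13 other Cnmd-positive P6 wildtype wells it summed to 7985 CPM. Mmp2, a secreted gelatinase, stood at 980 CPM in these members (71 of 75 wells), 161.2 in the other Cnmd-positive, 868 in the Cnmd-negative and 327.9 in the supporting cell wells. Aldh1a1, a retinaldehyde dehydrogenase, stood at 493 CPM in members, with a read in 38 of 75, and at 290.7, 233.4 and 226.4 CPM in the other 3 sets. Cpxm2, a member of the carboxypeptidase family, was at 942, 181.1, 849 and 921 CPM in the same order. Mia, which encodes a small secreted cartilage protein, was at 2969, 2627, 2951 and 3177 CPM. Thus Mia and Cpxm2 stood at similar levels in members, Cnmd-negative and supporting cell wells, and Cpxm2 was low only in the other Cnmd-positive wells among these 4 sets.

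The score difference of the rule ran from 0.377 to 11.8 log2 units in members (median 5.55) and from -8.72 to 0 in the other Cnmd-positive wells (median -3.40). Just inside the limit stood a P4 wildtype well at 0.377 and a P6 wildtype well at 0.408, and just outside a P4 Pou4f3-DTR well at 0 and a P6 wildtype well at -0.173. The well at 0 had no read on any of the 8 scored genes. For Cnmd, 7 members lay between 20 and 100 CPM and 56.6% reached 1000 CPM, while no well between 10 and 20 CPM met the other limits. Of the 72 Cnmd-negative wells, 68 had no Cnmd read. At the marker limits, 62 members held 1 hair cell gene and 36 held 2 supporting cell genes.

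**Figure D1:**
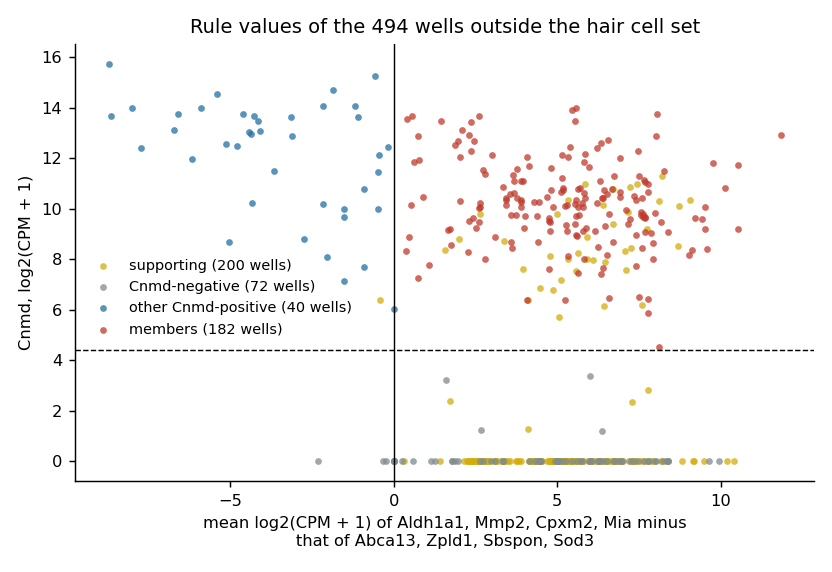
Score difference of the rule (x, log2 units) against Cnmd (y, log2(CPM + 1)) for all passed wells outside the hair cell set, 1 point per well, with the limits of 0 and of 20 CPM drawn as lines. The members and the 40 other Cnmd-positive wells occupy opposite sides of 0 by rule, and most Cnmd-negative wells lie at 0 on the Cnmd axis with scores like those of members.

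Members made up between 14.9% and 39.7% of the passed wells of a group. The shares were 18.4% (exact 95% binomial interval 10.5 to 28.97) at P2 and, at P4, 39.7% (28.8 to 51.5) for Atoh1-EGFP, 27.8% (17.9 to 39.6) for Pou4f3-DTR and 17.6% (12.03 to 24.4) for wildtype. At P6 they were 14.9% (8.39 to 23.7) for Pou4f3-DTR and 19.6% (15.8 to 23.98) for wildtype. These intervals, like the Poisson and binomial ones below, cover counting error only. P4 Atoh1-EGFP stood highest. It shared pool and enzyme with P4 Pou4f3-DTR and differed from P4 wildtype in both as well as in genotype, which cannot be told apart there. Within P6 wildtype the share ran from 12.7% (10 of 79) in pool 6 to 25% (35 of 140) in pool 1, and in pool 1 the Pou4f3-DTR share was 16.7% (10 of 60). The P2 wells made with maxima and smartscribe gave 6 of 33 and 8 of 43. Among Cnmd-positive wells of P6 wildtype, members were 75 of 88, from 10 of 17 in pool 6 to 16 of 16 in pool 5.

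**Figure D2:**
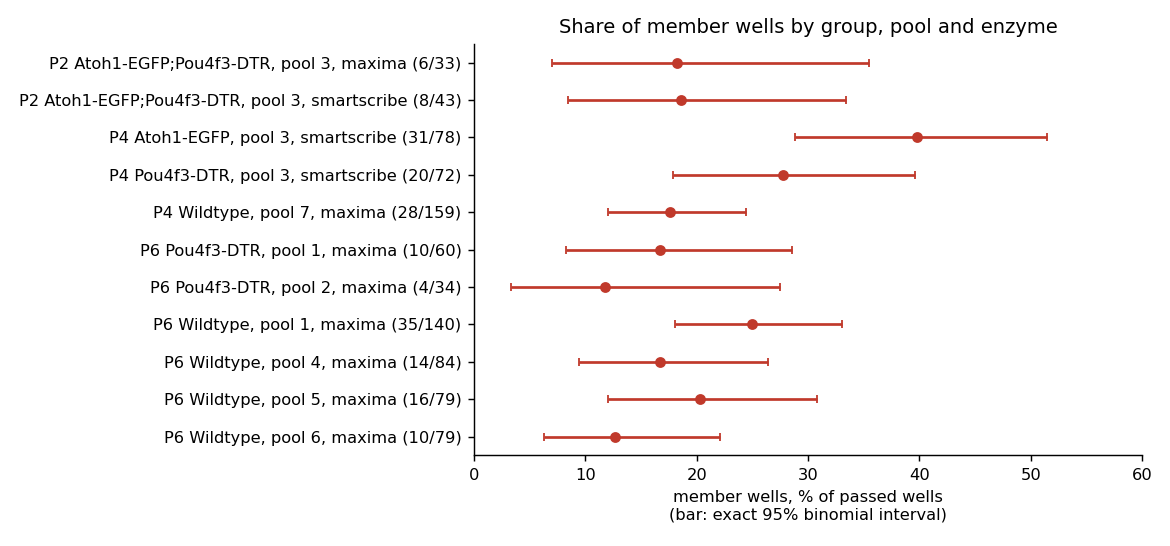
Member wells as a percentage of passed wells (x) for each group, sequencing pool and enzyme (y), with exact 95% binomial intervals as bars and well counts in brackets. The P4 Atoh1-EGFP wells stand highest at 39.7%, and the P6 wildtype pools run from 12.7% to 25%.

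Genes of retinoic acid synthesis and response outside the rule were compared first with the other Cnmd-positive wells. Levels are CPM of the counts summed over a set, and a listed gene was counted as higher or lower from 1.5-fold where 1 of the sets reached 10 CPM. At P6 wildtype (75 against 13 wells) 8 of 11 measured genes of the list were higher and 0 lower. Their median log2 fold was 1.37, against 0.26 over all 10037 genes so measured. Of all those genes 41.8% were higher and 27.1% lower. At P4 wildtype (28 against 12 wells) 5 of 12 were higher and 5 lower (list median -0.01), against 42% and 30.5% of 10109 genes. The list thus stood higher at P6 and was evenly split at P4. Since the sets were split on genes of the same wells, every such count is a description.

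Aldh1a3 (GRCm38, chr7:66390890-66427517), a second retinaldehyde dehydrogenase, was high at both ages. In P6 wildtype members its level ran over wells from 0 through a median of 361.4 to 2513 CPM (52 of 75 with a read), and in the other Cnmd-positive wells from 0 through 0 to 1074 (5 of 13). The sums were 636 (95% Poisson interval 628 to 643) and 140.3 CPM, a 4.53-fold difference. At P4 they were 1407 CPM (25 of 28 wells) and 325.98 CPM (3 of 12), 4.32-fold. The ranges over wells overlapped at both ages. In the other groups of members Aldh1a3 stood at 797 CPM at P2, 484 and 446 CPM in the Atoh1-EGFP and Pou4f3-DTR mice of P4, and 524 CPM in P6 Pou4f3-DTR. Across the P6 wildtype pools it ran from 281.4 (pool 4) to 906 CPM (pool 1). The gene was not particular to members: Cnmd-negative wells held 1048 CPM at P6 and 1469 CPM at P4, and supporting cell wells 201.4 and 228.8 CPM.

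Aldh1a2, of the same enzyme family, was scarce in members. It was read in 1 of 75 P6 and 1 of 28 P4 members (2.45 and 12.4 CPM), in 0 of 13 other Cnmd-positive wells at P6 and in 7 of 12 at P4, where it stood at 220.997 CPM. Dhrs3, which reduces retinaldehyde back to retinol, stood at 253.2 against 98.9 CPM at P6 and 468 against 276.6 CPM at P4. Rdh10, which makes retinaldehyde, and Cyp26b1, which breaks down retinoic acid, switched direction between the ages. Rdh10 was at 154.5 against 59.7 CPM at P6 and at 73.9 against 104.1 at P4, and Cyp26b1 at 18.3 against 2.82 and at 10.7 against 28.5. Crabp2, which carries retinoic acid to its receptors, was at 150.8 CPM in members and 193.9 in the other Cnmd-positive wells at P6, and at 173.7 and 278.4 at P4.

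Rarb, a retinoic acid receptor and itself a classical target of the hormone, was read in few wells of any set. It was found in 15 of 75 P6 members (20%, exact interval 11.6 to 30.8) and 5 of 28 P4 members, at 43.7 and 54.3 CPM. In the other Cnmd-positive wells it had 1 read in 1 of 13 wells at P6 (0.113 CPM) and none in 12 wells at P4. Cnmd-negative wells held 73.5 CPM (5 of 26) and supporting cell wells 19.8 CPM (7 of 86) at P6. Thinned to 80000 reads a well, the P6 shares were 17.3% of members and 0% of the other Cnmd-positive wells. In the P6 wildtype pools members ranged from 1.34 CPM in pool 5 to 72.6 CPM in pool 6. By wells with a read at full depth, the P6 supporting cell wells (8.14%) and the other Cnmd-positive wells (7.69%) were alike, so the contrast between those 2 sets rests on the CPM of a few wells.

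The promoters of the listed retinoic acid genes, 250 bases before to 50 after the transcription start in RefSeq on GRCm38.p6, were searched on both strands for the DR5 retinoic acid response element, a repeat of hormone receptor half-sites 5 bases apart. Of 18 genes 14 had an entry, with 27 promoters. The element was found in those of Rarb and Cyp26a1, and in 32 of all 32851 promoters (0.0974%). Both sequences are shown because they hold the element, in capitals, 53 to 37 bases upstream of the start in Rarb (chr14:16575427-16575726, minus strand) and 32 to 16 bases upstream, on the opposite strand, in Cyp26a1 (chr19:37697558-37697857, plus strand).
Rarb: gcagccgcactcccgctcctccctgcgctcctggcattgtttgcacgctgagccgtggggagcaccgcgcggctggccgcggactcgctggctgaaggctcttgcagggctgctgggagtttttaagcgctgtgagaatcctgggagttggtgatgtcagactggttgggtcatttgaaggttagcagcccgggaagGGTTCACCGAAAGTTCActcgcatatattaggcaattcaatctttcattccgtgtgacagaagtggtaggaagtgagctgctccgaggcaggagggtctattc
Cyp26a1: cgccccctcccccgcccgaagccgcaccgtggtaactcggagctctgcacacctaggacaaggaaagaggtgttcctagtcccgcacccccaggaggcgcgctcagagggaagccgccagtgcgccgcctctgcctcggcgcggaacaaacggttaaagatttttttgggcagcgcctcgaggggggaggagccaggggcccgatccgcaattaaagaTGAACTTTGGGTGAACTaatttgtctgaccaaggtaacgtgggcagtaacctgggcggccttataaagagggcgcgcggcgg
A match describes the sequence only. Cyp26a1, which encodes a retinoic acid hydroxylase, had 0 reads in the 75 P6 and 28 P4 wildtype members, and Rarb had the levels given above.

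Of the endolymph ion transport genes, 7 of 10 measured were higher and 2 lower in members at P6, and 5 of 12 higher and 6 lower at P4. Over all genes 41.8% were higher and 27.1% lower at P6, and 42% and 30.5% at P4, so the share of higher genes at P4 was that of all genes. Slc26a4 (chr12:31519827-31559969) was high at both ages. In P6 members it ran over wells from 0 through 233.8 to 3725 CPM, with a read in 40 of 75 (53.3%, exact interval 41.4 to 64.95), against 0, 0 and 941 CPM in the other Cnmd-positive wells (2 of 13). The sums were 625 and 88.7 CPM, a 7.04-fold difference, and at P4 656 (21 of 28 wells) and 5.35 CPM (1 of 12). In the remaining groups members held 310.4 CPM at P2, 505 and 396.5 CPM in the Atoh1-EGFP and Pou4f3-DTR mice of P4, and 520.3 CPM in P6 Pou4f3-DTR. Cnmd-negative wells were at 562 CPM at P6, and supporting cell wells at 68.4 CPM. Slc26a4 therefore set members and Cnmd-negative wells apart from both remaining non-hair sets at P6.

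Kcnj16 (chr11:110968033-111027968), an inward rectifier potassium channel subunit, was read in 32 of 75 P6 members at 186.8 CPM and in 0 of 13 other Cnmd-positive wells, at least 553-fold higher against a floor of 3 reads over the set. At P4 it was read in 5 of 28 members at 75.8 CPM and in 0 of 12. Supporting cell wells held 153.9 CPM at P6. Kcnj16 was scarce in pool 3, at 2.14 to 10.1 CPM in its 3 groups of members, where the enzyme was mostly smartscribe. Scnn1b, a subunit of the epithelial sodium channel, went the other way, at 5.76 against 37.8 CPM at P6 and 4.67 against 91.5 CPM at P4. Kcne1, a marker of dark cells, had no read in any of the 4 non-hair sets of wildtype wells.

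The FGF pathway list had 8 of 11 measured genes higher and 1 lower at P6 (median log2 fold 1.96), and 4 of 11 higher and 3 lower at P4 (median 0.10). The P4 counts were near the shares over all genes (42% and 30.5%), and at P6 those shares were 41.8% and 27.1%. Etv5 (chr16:22381309-22439719), a transcription factor induced by FGF signalling, was read in 24 of 75 P6 members at 105.7 CPM (32%, exact interval 21.7 to 43.8) and in 16 of 28 P4 members at 249.8 CPM. It had no read in the 13 and 12 other Cnmd-positive wells, which puts members at least 312.8-fold higher at P6 and 747-fold at P4 against the floor. Cnmd-negative wells held 41.01 CPM at P6 and 164.5 at P4, and supporting cell wells 22.2 and 85.2 CPM. Etv1, of the same family, stood at 69.4 against 12.96 CPM at P6 and 72.4 against 0 at P4. Dusp6, a feedback phosphatase of the pathway, stood at 836 against 263.9 CPM at P6 but at 511 against 479 at P4. Etv1 and Etv5 thus kept their direction at both ages, while Etv4 was counted higher at P4 alone. The feedback gene Dusp6 differed at P6 alone by the 1.5-fold rule. Of the listed Spry genes, Spry1 was counted higher at P6 and lower at P4, Spry2 higher at P6 alone and Spry4 lower at P6 alone.

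**Figure D3:**
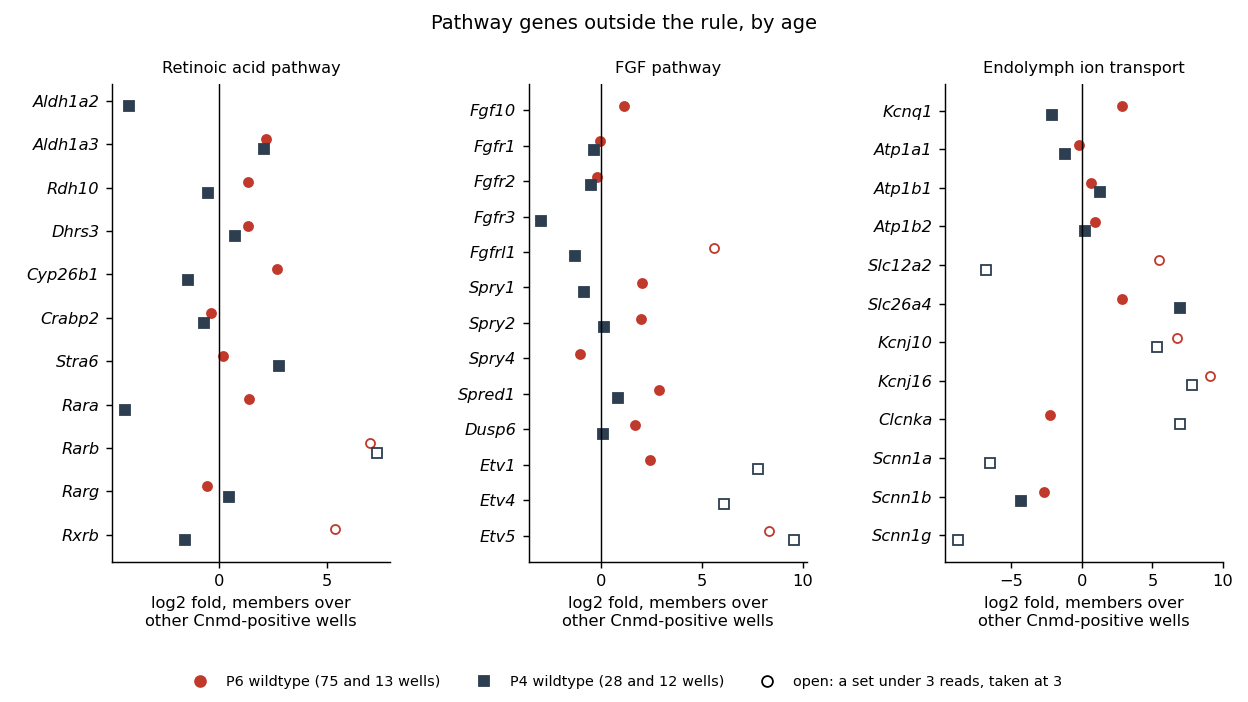
Log2 fold (x) of the summed CPM of members over the other Cnmd-positive wells for genes of 3 lists (y), circles for P6 wildtype and squares for P4 wildtype. Open symbols mark genes with under 3 reads in 1 set, taken at 3. Aldh1a3, Dhrs3, Rarb, Slc26a4, Kcnj16, Etv1 and Etv5 lie right of 0 at both ages, whereas Rdh10, Cyp26b1, Kcnq1 and Spry1 change side.

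In the Wnt list 11 of 18 measured genes were higher and 2 lower at P6 (41.8% and 27.1% of all genes), and 7 of 20 higher and 8 lower at P4 (42% and 30.5%), where the list median was -0.06. Wif1, which binds Wnt ligands outside the cell, stood at 344.9 against 20.3 CPM at P6 (27 of 75 against 1 of 13 wells) and 130.3 against 0 CPM at P4. Supporting cell wells held 8.92 CPM of Wif1 at P6 and none at P4, and Cnmd-negative wells 715 and 162.04 CPM, more than members at both ages. Sfrp1, another antagonist, was read in most members, at 697 against 409.9 CPM at P6 and 825 against 181.2 CPM at P4. Wnt5a, a ligand of the non-canonical branch, stood at 170.7 against 30.8 and at 145.9 against 39.9 CPM. Axin2, a target of the canonical branch, was counted higher at P6 and lower at P4.

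In the BMP and TGF beta list 5 of 17 measured genes were higher and 8 lower at P6, and 6 of 17 higher and 4 lower at P4. The shares over all genes were 41.8% and 27.1% at P6 and 42% and 30.5% at P4, and the list medians were -0.53 and -0.04. The ligand Bmp7 stood at 283.5 against 64.6 CPM at P6 and 447 against 89.1 CPM at P4. Ltbp1, which stores latent TGF beta in the matrix, stood at 1356 against 707 CPM and at 2586 against 212.6 CPM. Tgfbr2, the type II receptor, was at 132.2 against 46.7 CPM at P6, with a read in 34 of 75 against 1 of 13 wells, and at 106.7 against 28.4 CPM at P4, with a read in 5 of 28 against 1 of 12. Supporting cell wells held 4.64 CPM of Tgfbr2 at P6. Among Cnmd-negative wells Tgfbr2 was read in 10 of 26 at P6 and 5 of 17 at P4. Bmp7 was read there in 16 of 26 and 9 of 17, and Ltbp1 in 24 of 26 and 13 of 17. By wells with a read, none of these genes was thus particular to members. Bambi, a decoy receptor, was lower in members at both ages, at 61.7 against 145.1 and 26.3 against 219.9 CPM.

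Of 9 measured genes of the otolith and acellular matrix list, 2 were higher and 3 lower in members at P6. At P4, 2 of 9 were higher and 5 lower. Over all genes 41.8% were higher and 27.1% lower at P6, and 42% and 30.5% at P4. The list medians were -0.47 at P6 and -0.92 at P4, against 0.26 over all genes at both ages. Otog and Otol1, which encode otogelin and otolin of the otoconial membrane, were higher in members at both ages. Otog stood at 1567 against 538 CPM at P6 and 1252 against 242.7 CPM at P4, and Otol1 at 779.5 against 306.4 CPM and 765 against 191.6 CPM. Tecta (alpha-tectorin) and Oc90 (the main otoconial protein) were lower. Tecta stood at 1711 against 5464 CPM at P6 and 1451 against 6913 CPM at P4. Oc90 stood at 1265 against 4020 CPM and 3620 against 9332 CPM, with single wells up to 16388 and 23377 CPM in members. In supporting cell wells Otog was at 7611 CPM, so that members lay between the other Cnmd-positive and the supporting cell wells for this gene.

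Immediate early and heat shock genes, which can be induced while tissue is dissociated, were lower in members for 8 of 15 measured genes at each age. At P6 0 were higher and at P4 2 (Jun and Jund). Over all genes 27.1% were lower and 41.8% higher at P6, and 30.5% and 42% at P4. The list medians were -0.61 at P6 and -0.79 at P4, against 0.26 over all genes at both ages. Junb stood at 2682.5 against 5794 CPM at P6 and 1767 against 3962 CPM at P4, and Dnajb1 at 342.1 against 1992 and 251.6 against 608 CPM. Their part in the other differences between these sets was not tested. The cell cycle inhibitor Cdkn1c was also lower at both ages, at 7.89 against 57.4 CPM and 22.7 against 180.3 CPM. Anxa1, an annexin, was read in 4 of 75 members against 5 of 13 other Cnmd-positive wells at P6 (45.8 and 548 CPM) and in 0 of 28 against 4 of 12 at P4. Steap4, a metalloreductase, was at 27.1 against 469 CPM and at 0 against 321.1 CPM.

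Across all genes, a difference was called from 2-fold with at least 50 CPM and a read in at least 25% of wells of the higher set. At P6 711 of 3899 genes tested were called higher in members (18.2%) and 556 lower (14.3%). At P4, 920 of 4389 were called higher (21%) and 935 lower (21.3%). Of the 711 genes higher at P6, 26.3% were also higher at P4 (20.3% of the P4 genes) and 69 were lower. Of the 556 lower at P6, 22.3% were also lower at P4 (13.3% of the P4 genes) and 47 were higher. Only a minority of calls was therefore shared between ages. Beside the 21% higher and 21.3% lower over all genes tested at P4, the share for the lower calls was near that of any gene. Median detected genes after thinning to 80000 reads were 2618 in members and 2614 in the other Cnmd-positive wells at P6. The 13 other Cnmd-positive P6 wells came from pool 1 (3), pool 4 (3) and pool 6 (7), with none from pool 5. Without pool 6, 51.6% of the higher and 40.6% of the lower P6 calls were made again, on 6 other Cnmd-positive wells. There 894 genes were called higher and 913 lower, so that 49.5% of the calls were higher in place of 56.1%.

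The named genes with the largest differences, other than those above, were mostly read in a minority of wells. Gjb2, which encodes connexin 26, was read in 21 of 75 P6 members at 87.5 CPM and in 0 of 13, against 474 CPM in supporting cell wells. Serpinf1 (pigment epithelium-derived factor) was read in 25 of 75 members at 113.4 CPM and in 0 of 13. Spock1, a matrix proteoglycan, was read in 43 of 75 at 101.9 CPM, and 2 of 13 other Cnmd-positive wells held 1 read each. Tinag, a basement membrane protein, was read in 1 of 75 members and 4 of 13 other Cnmd-positive wells at P6 (5.47 and 238.2 CPM) and stood at 0 against 157.6 CPM at P4. At P4 Ntrk2, the receptor of brain-derived neurotrophic factor, was read in 14 of 28 members at 306.6 CPM and in 0 of 12 other Cnmd-positive wells, and Penk, the enkephalin precursor, in 13 of 28 at 242.4 CPM and in 0 of 12. Nell1 went the other way, at 0.260 against 679 CPM with 1 of 28 and 6 of 12 wells, and 56.8% of its reads in the latter came from 1 well.

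Against the supporting cell wells of P6 wildtype (75 against 86 wells), 467 of 3815 genes were called higher in members (12.2%) and 425 lower (11.1%). In each of pools 1, 4, 5 and 6 and in the mean over wells, 74.1% of the higher and 78.8% of the lower calls had the same direction. All 6 measured mesenchyme markers were lower in members (median log2 fold -6.48), and 1 supporting cell well held 29873 CPM of them. Without that well and the P6 member at 3839 CPM, chosen after the values were seen, 94.6% of the higher and 97.9% of the lower calls were made again. Genes of the Notch list were mostly lower in members than in supporting cell wells. Of 15 measured genes 1 was higher and 11 lower, with a median log2 fold of -4.19 against 0.08 over all genes, of which 29.7% were higher and 25.9% lower. Jag1, the ligand of sensory progenitors and supporting cells, stood at 5.25 against 359.4 CPM (3 of 75 against 73 of 86 wells). Hes1, a target of the pathway, stood at 4.74 against 149.04 CPM, and Lfng, which modifies the receptor, at 0.489 against 53.9 CPM. Jag1 and Hes1 had no read in the 13 other Cnmd-positive P6 wells, so their low level was not particular to members. Against that set 3 of 5 measured Notch genes were higher in members and 0 lower at P6 (41.8% and 27.1% of all genes). At P4, 3 of 8 were higher and 3 lower (42% and 30.5% of all genes). Sox2, a factor of sensory progenitors, was read in 0 of 75 members and 19 of 86 supporting cell wells (25.99 CPM), and Isl1 stood at 9.58 against 263.4 CPM. Tectb, which marks striolar supporting cells, had 1 read in 1 member and 4471 CPM in supporting cell wells. Gad1 and Cdh4 had no read in members and 245.8 and 165.1 CPM in supporting cell wells.

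Of 20 measured keratin and epithelial junction genes 8 were higher than in supporting cell wells and 4 lower (Cdh2, Cldn10, Tjp1 and Marveld2), with a list median of 0.32. Over all genes 29.7% were higher and 25.9% lower. Cldn4 (chr5:134945119-134946934), a tight junction claudin, ran over P6 members from 0 through 1874 to 11140.5 CPM with a read in 68 of 75, and over supporting cell wells from 0 through 0 to 3240 CPM with a read in 15 of 86. The sums were 2791 and 151.2 CPM, an 18.5-fold difference, and at P4 4222 and 40.6 CPM. It was not a mark of members alone, since the other Cnmd-positive wells held 2618 CPM and the Cnmd-negative wells 1477 CPM at P6. Gata2, a transcription factor, stood at 183.04 (47 of 75) against 8.53 CPM (5 of 86), and at 197.1 CPM in the other Cnmd-positive wells. Krt18 was at 3934 against 1169 CPM. Of 16 basement membrane genes 11 were higher and 5 lower, beside the same shares over all genes. Among the higher were Hspg2 (perlecan) at 276.5 against 12.7 CPM and Lamb2 at 238.8 against 64.01 CPM. Against the other Cnmd-positive wells the list did not stand higher, with 4 of 15 genes higher and 8 lower at P6, and 6 of 14 higher and 6 lower at P4.

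Other genes of the same comparison had near-absent levels in supporting cell wells. Igfbp6, a binding protein of insulin-like growth factor 2, was read in 21 of 75 members at 294.7 CPM and in 0 of 86 supporting cell wells. Rarres2 (chemerin), named for its response to retinoids, was read in 32 of 75 members at 67.3 CPM and in 1 of 86 supporting cell wells. It was not particular to members, since it was read in 7 of 13 other Cnmd-positive and 6 of 26 Cnmd-negative P6 wells. Fgfr2 was read in 28 of 75 members at 52.01 CPM and in 0 of 86, and in the other Cnmd-positive wells it stood at 59.4 CPM. Penk stood at 178.3 against 2.84 CPM, Mfap4, a microfibril protein, at 170.9 against 2.12 and Apoa4, an apolipoprotein, at 171.9 against 2.19. Crabp2 stood at 150.8 against 3.26 CPM. Levels of Igfbp6 in members differed between pools, from 85.9 CPM in pool 4 to 679 CPM in pool 6.

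**Figure D4:**
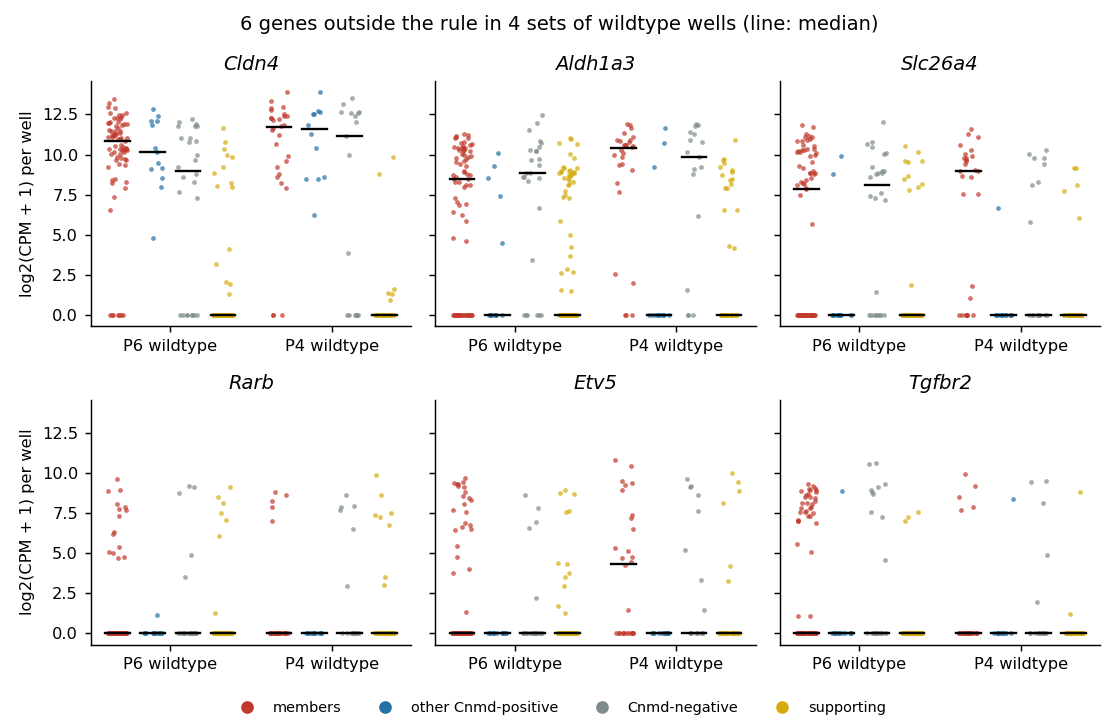
Level per well (y, log2(CPM + 1)) of Cldn4, Aldh1a3, Slc26a4, Rarb, Etv5 and Tgfbr2 in members, other Cnmd-positive, Cnmd-negative and supporting cell wells of P6 and P4 wildtype mice, 1 point per well with the median as a line. Cldn4 is read in most members and few supporting cell wells, and Etv5 is at 0 in all 25 other Cnmd-positive wells shown.

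Several of the genes above stood at like levels in the Cnmd-negative non-hair wells. Against them (75 against 26 wells) 420 of 3625 genes were called higher (11.6%) and 8.3% lower. Slc26a4, Dhrs3, Otog and Kcnj16 differed by less than 1.5-fold. Nucb2, which encodes a calcium-binding secretory protein, was read in 39 of 75 members at 133.7 CPM and in 4 of 26 Cnmd-negative wells at 1.24 CPM. Tnfrsf11b (osteoprotegerin, a decoy receptor) was read in 21 of 75 at 99.99 CPM and in 0 of 26, with 31.5% of its reads from 1 member. Car2, carbonic anhydrase 2, stood at 58.3 CPM in members with no read in the Cnmd-negative wells, and Cdkn1a at 229.5 against 13.9 CPM. Anxa2 stood at 535 CPM (40 of 75 wells) against 43.3 CPM (2 of 26). Lower in members were Foxp1, a forkhead repressor, at 25.6 against 143.6 CPM, and Dmrta1 at 16.8 against 109.2 CPM. One Cnmd-negative P6 well held 33773 CPM of Tectb and one 107950 CPM of endothelium and pericyte markers (members 0.378 CPM in sum), so that set was not of 1 kind. Without the wells at 1000 CPM or more of mesenchyme or endothelium markers (2 Cnmd-negative wells and 1 member), 90.2% of the higher and 84.4% of the lower calls were made again. In each of pools 1, 5 and 6 and in the mean over wells, 71.9% of the higher and 54.8% of the lower calls had the same direction. Without pool 1, which held 13 of the 26 Cnmd-negative wells, 739 genes were called higher and 630 lower.

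Proliferation genes were carried by few wells. With 4 or more of Mki67, Top2a, Cdk1, Ccnb1, Ccnb2, Ccna2, Birc5 and Cenpf at 10 CPM or more as the limit, chosen after the values were seen, 6 members qualified (3.30%, exact interval 1.22 to 7.04). They were 2 of 75 wells of P6 wildtype, and at P4 1 of 28 wells of wildtype, 2 of 20 of Pou4f3-DTR and 1 of 31 of Atoh1-EGFP. None of 40 other Cnmd-positive wells, 2 of 72 Cnmd-negative, 2 of 200 supporting cell and 1 of all hair cell wells did so, and the intervals overlap. Each of these 8 genes counted as higher in the P6 list comparisons. Beside the other Cnmd-positive wells, the cell cycle list (18 measured) had 13 genes up in members and 2 down. The shares over all genes were 41.8% and 27.1%. Beside the supporting cell wells the list had 12 up and 2 down, with 29.7% and 25.9% over all genes. Top2a, for instance, was read in 3 of 75 P6 members at 64.6 CPM with 87.2% of the reads from 1 well, and in none of the other Cnmd-positive or supporting cell wells of that age.

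Members also differed among themselves. Genes read in 25% to 75% of the P6 wildtype members numbered 3255. The 10 with the highest mean level in wells with a read were Oc90 (52 of 75), Slc26a4 (40), Thbs1 (41), Arc (40), Dclk1 (56), Wif1 (27), Aldh1a3 (52), Ppfibp1 (55), Ppp1r15a (50) and Islr (56). Slc26a4 followed Aldh1a3. Over all members at 10 CPM, 97 held both, 7 held Slc26a4 alone, 39 held Aldh1a3 alone and 39 neither. In the 75 P6 wildtype members Spearman's rho between them was 0.46, and it was 0.52, 0.71 and 0.29 in P4 wildtype, Atoh1-EGFP and Pou4f3-DTR.

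Aldh1a1, which the rule used, went against Slc26a4. Over all members 32 held both at 10 CPM, 72 held Slc26a4 alone, 52 held Aldh1a1 alone and 26 neither. Spearman's rho was -0.50 in P6 wildtype and -0.12, -0.33 and -0.45 in the P4 groups in the same order. Pool 5 of P6 wildtype held Aldh1a1 reads in 14 of 16 members and Slc26a4 in 6 of 16, and pool 1 held them in 12 of 35 and 23 of 35. Against Cnmd, rho in P6 wildtype members was -0.58 for Slc26a4, -0.57 for Otol1, -0.42 for Aldh1a3, -0.42 for Etv5, 0.49 for Igfbp6 and 0.41 for Anxa2. In P4 wildtype the same values were 0.07, -0.31, -0.32, -0.19, -0.15 and 0.16. In the 31 P4 Atoh1-EGFP members they were -0.42, -0.24, -0.13, -0.43, 0.37 and 0.41, each with the sign seen at P6. In the 20 P4 Pou4f3-DTR members they were 0.14, -0.16, 0.17, -0.40, -0.13 and 0.16. Slc26a4 and Igfbp6 thus had the P6 sign in P4 Atoh1-EGFP and the opposite one in the other P4 groups. Wells share pools and depth, the members were chosen on Cnmd and Aldh1a1, and these correlations are a description of the chosen wells with no test.

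**Figure D5:**
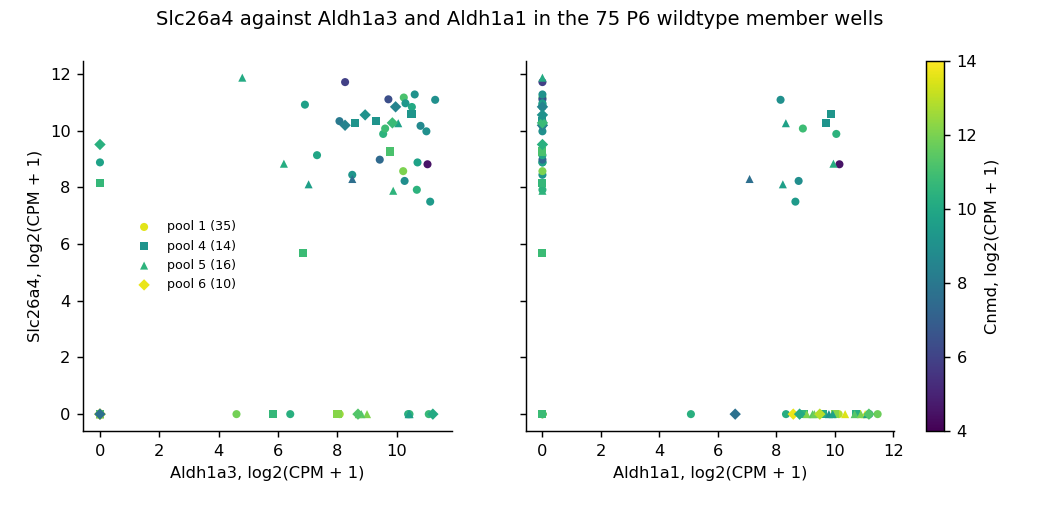
Slc26a4 (y, log2(CPM + 1)) against Aldh1a3 (left) and Aldh1a1 (right) in the 75 P6 wildtype members, with symbols for the sequencing pool and colour for Cnmd (log2(CPM + 1)). Of the 40 wells with Slc26a4, 37 also held Aldh1a3 and 12 held Aldh1a1 at 10 CPM.

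Members of P4 and P6 wildtype mice differed in age and in sequencing pool, which cannot be told apart. At P4, 400 of 3914 genes were called higher (10.2%) and 9.33% lower, while by the 1.5-fold list rule 30.2% of 10288 genes were higher and 28.5% lower. Igfbp6 was read in 3 of 28 P4 and 21 of 75 P6 members, at 20.8 and 294.7 CPM. Rarres2 was read in 1 of 28 and 32 of 75 (6.65 and 67.3 CPM), and Plet1, a surface protein of epithelial progenitors, in 2 of 28 and 23 of 75 (1.14 and 98.04 CPM). Higher at P4 were Col4a1, a basement membrane collagen chain, at 73.9 against 10.1 CPM, Fbln1, a matrix glycoprotein, at 163.3 against 23.1 and Chst15, a chondroitin sulphotransferase, at 162.6 against 21.3. Oc90 stood at 3620 at P4 against 1265 CPM at P6, and at 9796 CPM at P2, 3559.5 and 3736 CPM in the Atoh1-EGFP and Pou4f3-DTR mice of P4, and 1179 CPM in P6 Pou4f3-DTR, so the P6 groups were the lowest of the 6. One P2 well reached 75999.9 CPM of Oc90. Aldh1a3 was 2.21-fold and Etv5 2.36-fold higher at P4, where 5 of 12 measured retinoic acid genes were higher and 3 lower.

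The 10 Pou4f3-DTR and 35 wildtype members of P6 pool 1 shared pool and enzyme. The receptor transcript itself was read in 0 of 14 P6 Pou4f3-DTR members and 2 of 75 P6 wildtype members, at up to 3 reads, and in 20 of 53 and 9 hair cell wells of the same groups. It had no read in any P2 or P4 member or hair cell well, so it does not check the genotype there. Genes called higher in Pou4f3-DTR numbered 685 of 4011 (17.1%) and lower 813 (20.3%). Etv5 had no read in the 10 wells (exact interval 0 to 30.8% of wells) and was read in 17 of 35 wildtype wells at 140.01 CPM (48.6%, 31.4 to 66.01). It was also at 0 in the 4 members of pool 2. Serpinf1 was read in 0 of 10 against 14 of 35 (142.3 CPM). Nr4a2, an immediate early nuclear receptor, was read in 4 of 10 against 1 of 35 wells, at 126.5 against 0.254 CPM. The other named genes higher in Pou4f3-DTR were read in 3 of its 10 wells, and 50.4% to 94.8% of their reads came from 1 well. Aldh1a3, Slc26a4 and Cldn4 stood at 809 against 906, 812 against 764 and 2488 against 1706 CPM, each within 1.5-fold.

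In pool 3, 20 Pou4f3-DTR members were set beside 31 Atoh1-EGFP members of P4, with 6.71% of 3234 genes called higher and 9.49% lower. Neither group was wildtype. Isl1, a factor of otic and neural progenitors, had 1 read in 1 of 20 Pou4f3-DTR members and was read in 10 of 31 Atoh1-EGFP members at 56.5 CPM, with 52.3% of the reads from 1 well. Sema3c, a guidance factor, stood at 1.29 against 56.2 CPM (1 of 20 against 9 of 31), and Krt23, a keratin, at 4.07 against 50.4. Higher in Pou4f3-DTR were Aldh6a1, a mitochondrial dehydrogenase, at 52.4 against 1.52 CPM (12 of 20 against 6 of 31) and Tnfrsf11b at 57.1 against 5.67 CPM (7 of 20 against 4 of 31), although 65.6% of the Aldh6a1 reads came from 1 well. Aldh1a3 and Slc26a4 differed by 1.09-fold and 1.27-fold.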

How the data were processed

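The authors deposited expected counts per gene for 1002 wells, made with STAR 2.5.3a and RSEM 1.3.0 on mm10 per the submitters' processing notes. Neither annotation nor strand handling is given in the sources used here. Counts were rounded to whole numbers and scaled to CPM over 52636 mouse genes, leaving out 92 spike-ins and the transgene entries. No genes were tested with a count model, because each group of age and genotype is 1 sample. Counts were summed over the wells of a set, with exact Poisson (CPM) and Clopper-Pearson (shares) 95% intervals, which cover counting error only, since reads carry no molecular identifiers. Wells labelled failed (141) were left out, and 182 of the 861 passed wells met the member rule. Doublets were not called, as wells hold sorted single cells. No pair of wells held identical counts. Named genes were the 12 largest differences in each direction with the same direction in the mean over wells and in every pool with 5 wells of both sets, plus list and rule genes. The member rule and the gene lists were chosen with earlier results of these data known. The scripts ran under Python 3.11.15 with matplotlib 3.10.9, scipy 1.17.1, pandas 2.3.3 and numpy 2.4.6, and recovered known fold changes in simulated counts. Gene names and intervals come from GENCODE on GRCm38, and promoter sequences from RefSeq. Values of some listed genes are not reported here.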

Additional observations from a re-analysis of the deposited data

Results flagged for a closer look

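Among the wells labelled failed, which entered no comparison, 7 met the same limits as members. They were 4 P2 wells with 844 to 91489 reads, 2 P4 Pou4f3-DTR wells with 6297 to 11608 reads and 1 P4 wildtype well with 2340 reads.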

How the results depend on the processing

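Under 7 other settings of the rule, the number of members stayed between 92.9% (score without Mia) and 103.3% (all wells with 1000 detected genes) of the reported number. Thinning to 80000 reads kept 98.4% of the members. The calls in both directions together grew with a looser filter on low values. With a filter at 10 CPM and 10% of wells, and with none beyond 10 reads, they numbered 3796 and 8829 against the other Cnmd-positive wells at P6, 4306 and 8284 at P4, 2828 and 8197 against Cnmd-negative wells, 2543 and 8451 against supporting cell wells, 2803 and 8079 for P4 against P6, 4600 and 8150 for Pou4f3-DTR against wildtype at P6, and 2689 and 6343 for Pou4f3-DTR against Atoh1-EGFP at P4. The last 2 comparisons' alternatives, and leaving out wells rich in mesenchyme or endothelium markers, were chosen after seeing the data. Without a filter the share of higher calls moved from 56.1% to 72.4% against the other Cnmd-positive wells at P6, from 49.6% to 63.6% at P4, from 52.3% to 40.4% for P4 against P6 and from 45.7% to 29.7% for Pou4f3-DTR at P6. Without pool 6 the lower calls against the other Cnmd-positive wells at P6 rose from 556 to 913. Without pool 1, 1369 genes were called against Cnmd-negative wells. The cause of these changes was not tested beyond the number of genes let in.

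Of 1656 recomputed folds of named genes 0 changed sign, which their choice by a shared direction in pools and in the mean over wells largely fixes, and 7.07% no longer passed the call. List medians against the other Cnmd-positive wells changed sign from P6 to P4 for the retinoic acid (-0.0107), cartilage matrix (0.29), basement membrane (0.32), ion transport (-0.52), otic patterning (0.21), Notch (-0.51), Wnt (-0.0592), Hippo (-0.71) and keratin lists (-0.00993). Median-of-ratios scaling shifted the median gene by more than 0.1 log2 units against supporting cell wells alone (-0.11). No paired analysis was possible because the labels give no animals or shared replicate numbers. Directions could be compared between sequencing pools only against supporting cell wells (4 pools) and Cnmd-negative wells (3 pools). Against the other Cnmd-positive wells, pool 6 alone was used at P6 and pool 7 alone at P4. The Pou4f3-DTR comparisons lay within pool 1 at P6 and pool 3 at P4. For P4 against P6 no pool could be used. With 10 to 28 wells in the smaller sets, a gene read in a few wells is decided by those wells.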
